A study of Mus musculus with 19 samples.

Results

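The response to dietary iron was compared between liver, the main store of iron and source of hepcidin, and duodenum, where iron is taken up. The comparison used 10 of the 19 arrays of the series. For each organ there were 3 arrays from animals given the iron-supplemented diet and 2 from animals given the control diet. All were male C57BL/6 mice of 16 to 18 weeks with an intact *Hfe* gene as far as the labels state. Carbonyl iron was the supplement, and the control animals had standard chow. RNA was hybridized 1 mouse per array to Illumina Sentrix Mouse-6 bead arrays. Both tissues came from the same animals according to the design, but nothing in the labels ties a liver array to a duodenum array, so the 10 arrays were taken as independent. Nothing says which steps were repeated apart from the animal, and p-values measure the spread between these arrays only. For each probe the diet effect is the mean log2 signal on the iron diet minus that on the control diet, and the tissue difference is the effect in liver minus the effect in duodenum. Of 46632 probes, 12971 had a detection p under 0.05 on 2 or more arrays of each tissue, and these were tested. They carry 7819 named genes, while 2813 of them have no gene symbol.

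Iron is absorbed by enterocytes of the duodenum, passes into plasma through ferroportin and reaches the liver bound to transferrin. Hepatocytes sense it through bone morphogenetic protein (BMP) signalling to SMAD proteins, which raises transcription of the *Id* genes and of hepcidin, the hormone that closes ferroportin. Enterocytes meet dietary iron first, and iron in excess of what ferritin can hold promotes oxidants, against which the transcription factor NRF2 induces glutathione transferases and other detoxifying enzymes.

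Between 13042 and 14369 probes were detected on the iron-diet liver arrays and 13823 to 13900 on the control livers, against 13936 to 16020 on the iron-diet duodenum arrays and 14762 to 15630 on the control duodena. Pearson coefficients were taken across the 12971 tested probes, which are not independent replicates. Within a diet they were 0.9893 to 0.9938 among iron-diet livers and 0.9926 between control livers. In duodenum they were 0.9773 to 0.9947 among iron-diet arrays and 0.9846 between controls. Between diets they were 0.9813 to 0.9869 in liver and 0.9701 to 0.9901 in duodenum. Control duodenum 1 was closer to iron-diet duodena 1 and 2 (0.9884 and 0.9901) than to control duodenum 2. The duodenal arrays thus did not group by diet. Iron-diet duodenum array 3 and control duodenum array 2 stood farthest from the rest of their tissue. Values without 1 or both are given for *Slc11a2*, *Hmox1*, some gene lists and the counts of calls. Other results that depended on them are not repeated without them. The tissue labels held: hepatocyte markers summed to 61500 to 64000 signal units in liver and 3240 to 4980 in duodenum, and enterocyte markers to 20000 to 25900 in duodenum and 2000 to 5120 in liver. Pancreatic acinar enzyme markers were detected as well, 15 of 15 on every duodenal array, and the source of their signal was not tested.

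Few probes were called in both tissues. With Benjamini-Hochberg adjustment over the 12971 probes in limma, 131 probes had a diet effect that differed between the tissues (1.01% of those tested), 77 with the more positive effect in liver and 54 with the more positive effect in duodenum. In liver 283 probes passed the test (2.18%), 154 higher (1.19%) and 129 lower (0.995%) on the iron diet. In duodenum 109 passed (0.84%), 62 higher (0.478%) and 47 lower (0.362%). Only 15 probes (0.116%) were called in both tissues with the same sign, which is 5.3% of the liver calls and 13.8% of the duodenal calls. With opposite signs, 1 probe (0.00771%) was called in both. Among the 131 probes with a tissue difference, 79 were called in liver alone, 34 in duodenum alone, 1 in both and 17 in neither, and 101 had effects of opposite sign. A call in 1 tissue was mostly not a proven difference: of 267 probes called in liver and not in duodenum 79 had a called tissue difference, and of 93 called in duodenum and not in liver 34 had one. At an unadjusted p under 0.05 there were 1614 probes for the tissue difference, 1880 for liver and 1520 for duodenum. Over the 12971 probes the median effect was -0.01 in liver, 0.01 in duodenum and -0.02 for the difference. The fold changes of the tissues had a Pearson coefficient of 0.0909 across these probes, given as a description. Below, a share of all probes means a share of these 12971. Groups that do not overlap were common with so few arrays, at 33.3% of probes in liver and 26.9% in duodenum. In whole tissue, fewer cells of a type and less RNA per cell cannot be told apart.

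**Figure D1:**
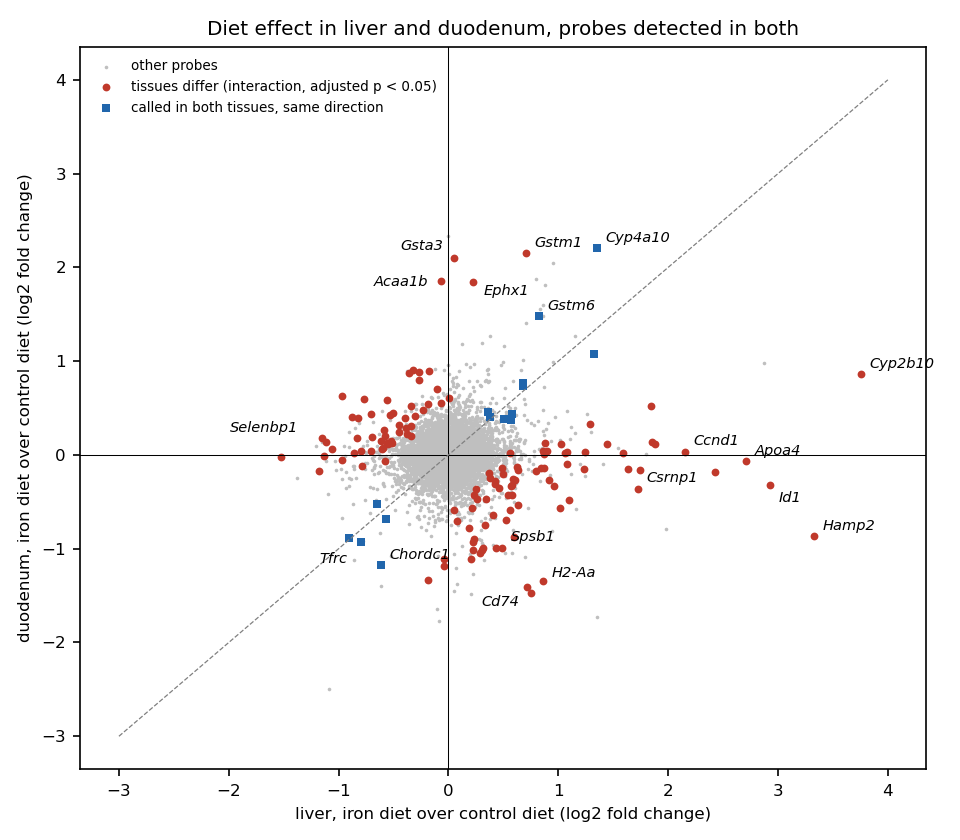
Diet effect in liver (x axis) against duodenum (y axis) as log2 fold change of iron over control diet, 1 point per probe detected in both tissues. Red points are the 131 probes whose effect differed between tissues, blue squares the 15 probes called in both with the same sign, and the dashed line marks equal effects. Red points lie along the axes and in the upper left and lower right of the plot, blue squares near the dashed line.

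These counts depended on single arrays. Leaving out 1 array at a time gave 23 to 231 probes for the tissue difference, 66 to 320 for liver, 30 to 268 for duodenum and 3 to 20 for the shared set, with the lowest count for the tissue difference without control liver 1 and the highest without control duodenum 1. With median scaling in place of quantile normalization, 23 probes differed between tissues, and the share of duodenal calls that were higher was 73.2% in place of 56.9%. For the genes named below, the call of a tissue difference is therefore given with the number of other settings, out of 22 at most, under which it was lost. It was never lost for *Hamp2*, *Id1*, *Apoa4*, *Csrnp1*, *Gsta3*, *Acaa1b*, *Selenbp1*, *Spsb1* and *H2-DMa*, 9 of the 42 named genes with this call, and no named gene turned its direction with a call on either side.

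The hepcidin genes and the *Id* genes rose in liver, and none of them rose in duodenum past the threshold. *Hamp2*, the second hepcidin gene of the mouse, had the largest positive tissue difference of the named genes. Its log2 signal was 13.32, 13.75 and 14.21 in iron-diet livers against 10.29 and 10.58 in control livers, and 8.33, 8.26 and 8.24 in iron-diet duodena against 9.11 and 9.17 in control duodena. Every iron-diet liver lay above and every iron-diet duodenum below its controls. *Hamp2* was 10.0-fold higher in liver (log2 3.33 ± 0.20 SE, adjusted p = 1.34e-05) and 1.82-fold lower in duodenum, short of the threshold (adjusted p = 0.0827). The difference was 4.19 ± 0.28 (adjusted p = 7.34e-05). In a fit of the duodenum arrays alone the duodenal fall passed (adjusted p = 0.0244). *Hamp*, which encodes hepcidin itself, was detected in liver alone, with 13.61, 13.59 and 13.40 on the iron diet against 12.49 and 12.98 on the control diet. All iron-diet livers were higher, by 1.74-fold (adjusted p = 0.0368 in a fit of the liver arrays alone).

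The genes sit close together on chromosome 7 and their upstream sequences are nearly alike, so that the stretch around the BMP response element of *Hamp* is shown with its counterpart in *Hamp2* (RefSeq, GRCm38.p6, both on the minus strand). Capitals mark the element's core, GGCGCC, and the bases aligned with it. *Hamp* lies at chr7:30944101-30944170 and *Hamp2* at chr7:30924250-30924319, and the core begins at -109 from the annotated start of *Hamp*.
Hamp: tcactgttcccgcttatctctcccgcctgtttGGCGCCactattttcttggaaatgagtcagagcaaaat
Hamp2: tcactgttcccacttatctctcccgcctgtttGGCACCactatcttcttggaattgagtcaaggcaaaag
These 70 bases differ at 7 positions, of which 1 is in the core (G4A, counted from 1 at its 5′ end, *Hamp* base first). On either strand, 3 of 5 promoters of these and the *Id* genes (60%; *Hamp*, *Id2* and *Id4*, not *Hamp2* or *Id3*) hold GGCGCC in the 250 bases before the start, as do 9.59% of all 32851 promoters. The set held 6 genes, but no promoter of *Id1* was available to search. How far the probes of such close copies cross-hybridize was not tested, here or for the *Gsta*, *Gstm*, *Cyp4a* and *H2* genes below.

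*Id1*, a BMP target that encodes an inhibitor of helix-loop-helix transcription factors, followed *Hamp2*. It had 10.04, 9.56 and 9.37 in iron-diet livers against 6.70 and 6.75 in control livers, and 8.82, 8.80 and 8.83 in iron-diet duodena against 9.03 and 9.25 in control duodena. The liver groups were far apart, a 7.62-fold rise (adjusted p = 8.36e-06), while iron-diet duodena lay just below their controls without passing (adjusted p = 0.472). The tissue difference of *Id1* was 3.25 ± 0.22 (adjusted p = 7.49e-05). A dimmer second *Id1* probe gave 0.21 (adjusted p = 0.527). *Id3*, of the same family, had 9.62, 9.16 and 9.23 in iron-diet livers against 7.53 and 7.88 in control livers, a 3.11-fold rise, and overlapping duodenal groups (difference 1.79 ± 0.21, adjusted p = 0.00426, lost in 2 settings). *Id2* and *Id4* rose in liver as well, by 1.55 and 0.34 on the log2 scale (adjusted p = 0.0128 and 0.0428), without a called tissue difference (adjusted p = 0.11 and 0.416). Of the 9 genes tested on the hepcidin and BMP-SMAD list, 5 rose in liver (1.19% of all probes did) and 0 changed in duodenum. A positive tissue difference was called for 3 (0.594% of all probes). The medians were 0.37 in liver, -0.15 in duodenum and 0.60 for the difference.

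Among genes of iron uptake and export, *Tfrc* passed in both organs and *Slc40a1* in liver. *Tfrc*, the transferrin receptor for cellular iron uptake, fell. It had 6.77, 6.62 and 6.98 in iron-diet livers against 7.67 and 7.51 in control livers, and 8.07, 8.27 and 8.53 in iron-diet duodena against 8.96 and 9.48 in control duodena. The groups were apart in each tissue, with 1.74-fold lower signal in liver (adjusted p = 0.0382) and 1.90-fold lower signal in duodenum (adjusted p = 0.0318), and the tissue difference was 0.13 ± 0.24 (adjusted p = 0.884). The liver call of *Tfrc* was lost in 8 and the duodenal call in 9 of 22 settings. *Slc40a1*, which encodes ferroportin, was 1.62-fold higher in liver (adjusted p = 0.0093). In duodenum it was 1.45-fold higher with groups that did not overlap and narrowly missed the threshold (adjusted p = 0.0538).

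*Slc11a2* encodes DMT1, the importer of ferrous iron at the brush border. Its log2 signal was 7.10, 7.02 and 7.02 in iron-diet livers against 8.06 and 7.94 in control livers, and 7.99, 8.14 and 9.03 in iron-diet duodena against 8.36 and 8.22 in control duodena. Iron-diet duodenum 3 was the highest of its tissue and the other two were the lowest, so that the duodenal groups overlapped. The liver value was 1.94-fold lower (adjusted p = 0.0692), and a second *Slc11a2* probe was 1.68-fold lower there and passed (adjusted p = 0.0456). By quantitative RT-PCR, the paper reports its array change of this gene in iron-diet livers as a false positive. Without iron-diet duodenum 3 the first *Slc11a2* probe passed in liver, at -0.95 (adjusted p = 0.000605), and for the tissue difference, at -0.72 (adjusted p = 0.0329), with -0.23 in duodenum. With control duodenum 2 left out as well, its difference of -0.64 did not pass (adjusted p = 0.0926). Iron-diet duodenum 3 was also high for *Hmox1*, the heme oxygenase that frees iron from heme, which had 7.57, 8.15 and 8.95 in iron-diet duodena against 6.92 and 7.20 in control duodena (2.24-fold, adjusted p = 0.118). Liver had 8.72, 9.02 and 8.96 against 8.45 and 8.34 for *Hmox1*, 1.42-fold higher without passing (adjusted p = 0.503). Without iron-diet duodenum 3, *Hmox1* was 0.82 log2 units higher in duodenum (adjusted p = 0.0824). The paper reports higher *Hmox1* and lower *Tfrc* in iron-diet duodena by quantitative RT-PCR as well as by array. By the same method it reports higher *Hamp*, *Hamp2* and *Lcn2* in iron-diet livers. *Fth1* and *Ftl1*, the ferritin subunits that store iron, did not pass for the tissue difference (adjusted p = 0.25 and 0.994), and *Ftl1* was 1.27-fold higher in each tissue without passing in either. *Cybrd1*, a duodenal ferric reductase, was detected on 0 of 5 liver arrays and was 1.04-fold lower in duodenum (adjusted p = 0.861 in a fit of the duodenum arrays alone). Of 15 genes tested on the iron transport, uptake and storage list, 2 rose and 2 fell in liver (1.19% and 0.995% of all probes) and 1 fell in duodenum (0.362%). There was 1 called difference, in *Lcn2*, where 1.01% of all probes had one.

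*Lcn2*, which encodes a neutrophil and hepatocyte protein that binds bacterial iron carriers, was 2.11-fold higher in liver (8.30, 7.90 and 7.78 against 7.14 and 6.69). In duodenum it was near background, detected on 1 of 3 iron-diet and 1 of 2 control arrays, and 1.07-fold lower. Its tissue difference of 1.18 ± 0.24 was at the threshold (adjusted p = 0.0492) and was lost in 12 of 18 settings. Among heme genes, *Alas2*, the erythroid first enzyme of heme synthesis, had 9.00, 8.75 and 8.88 in iron-diet livers against 10.00 and 10.02 in control livers. It had 6.57 to 6.92 on all duodenal arrays, near background. The difference was -1.13 ± 0.16 (adjusted p = 0.0113, lost in 4 of 21 settings). The other 4 erythroid markers summed to 5490 to 6390 in iron-diet livers against 3950 to 5230 in control livers. Only 2 or 3 of 5 erythroid markers, *Alas2* included, were detected on a liver array. The part of erythroid cells in the *Alas2* result was not tested. *Alas1*, its housekeeping counterpart, varied by more than 1 log2 unit among the iron-diet livers (11.27, 12.00 and 12.89) and passed no test.

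Outside iron handling, the largest called differences led by liver were in single genes of several functions. *Cyp2b10*, a drug-metabolizing cytochrome P450 induced through the receptor CAR, had 10.36, 9.54 and 10.02 in iron-diet livers against 6.19 and 6.25 in control livers. In duodenum it had 10.46, 10.41 and 10.13 against 9.87 and 9.08, and the groups were apart in both tissues. The control livers were not above background, so the rise in liver was at least 11.3-fold, taken against the lowest signal among detected probes (adjusted p = 3.05e-05). Duodenum was 1.81-fold higher without passing (adjusted p = 0.172), and the measured difference of 2.90 ± 0.35 (adjusted p = 0.00513, lost in 1 of 21 settings) was at least 2.64 with the control livers at that lowest signal. It was 1 of 13 genes tested on the list of cytochrome P450 families 1 to 3 with a called tissue difference. Of all probes, 1.01% had one.

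*Apoa4*, an apolipoprotein of triglyceride-rich particles that is abundant in intestine, had 11.35, 11.84 and 11.51 in iron-diet livers against 8.86 in both control livers. Duodenum had 13.33, 13.39 and 13.61 on the iron diet against 13.74 and 13.28, which overlap. The difference was 2.77 ± 0.22 (adjusted p = 0.000253), and a second *Apoa4* probe gave 2.61 ± 0.17 (adjusted p = 7.34e-05). The other 9 enterocyte markers summed to 1440 to 1570 in iron-diet livers against 1530 to 1690 in control livers, with no higher level on the iron diet. *Apoa4* was 1 of 11 genes tested on the apolipoprotein list with a called tissue difference, where 1.01% of all probes had one. *Ccnd1*, the G1 cyclin D1, had 10.38, 11.11 and 10.59 in iron-diet livers against 8.26 and 8.81 in control livers, a 4.45-fold rise, with duodenal groups that overlap (difference 2.12 ± 0.33, adjusted p = 0.0161, lost in 3 settings). Of 4 further *Ccnd1* probes, 3 passed for the tissue difference in the same direction. It was 1 of 17 genes tested on the cell cycle and DNA replication list, where no other gene passed in either tissue. Of all probes, 1.01% had a called difference. *Csrnp1*, a nuclear protein first described as induced by AXIN1, had the lowest p of all probes: 8.57, 8.67 and 8.56 in iron-diet livers against 6.80 and 6.93, and 6.86, 6.81 and 6.83 in iron-diet duodena against 7.14 and 7.24 (difference 2.09 ± 0.11, adjusted p = 1.56e-05).

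**Figure D2:**
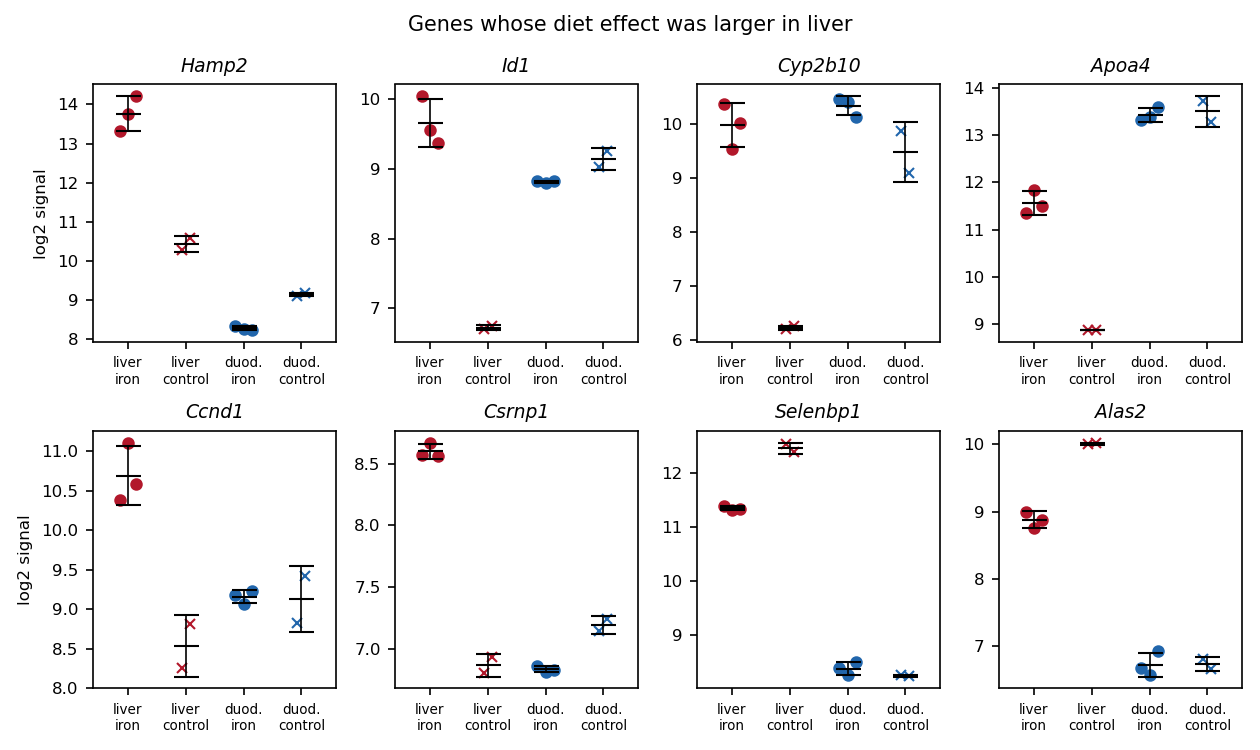
Log2 signal of 8 genes on each array (points, circles for the iron diet and crosses for the control diet), with the group mean and SD as bars, in liver (red) and duodenum (blue). The first 6 genes are higher in iron-diet livers than in control livers, by 1.73 to 3.33 log2 units for the 5 other than Cyp2b10, whose control livers were not above background, Selenbp1 and Alas2 are lower there, and the duodenal means lie within 0.86 log2 units of each other.

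For some genes detected in both tissues, the difference was led by a fall in liver. *Selenbp1*, a selenium-binding methanethiol oxidase, had 11.40, 11.32 and 11.34 in iron-diet livers against 12.54 and 12.39 in control livers, and 8.38, 8.25 and 8.49 in iron-diet duodena against 8.25 and 8.23 in control duodena (difference -1.25 ± 0.12, adjusted p = 0.0015). A second *Selenbp1* probe had a difference of -0.06 (adjusted p = 0.925), so the probes disagree. *Ppp1r3b*, which targets protein phosphatase to glycogen, was 1.95-fold lower in liver (adjusted p = 0.000872). In duodenum it was close to background, at 6.53 to 6.69, and 1.04-fold lower (difference -0.91 ± 0.14, adjusted p = 0.0144, lost in 4 of 21 settings). *Ttc39c* was 2.23-fold lower in liver and 1.13-fold higher in duodenum (difference -1.33 ± 0.20, adjusted p = 0.0142, lost in 5 settings). *Ddc*, the decarboxylase that makes dopamine and serotonin, and *Bok*, a BCL2 family member, were lower in liver and had higher means in duodenum, with differences of -1.60 and -1.37 (adjusted p = 0.0388 and 0.0186). Their calls were lost in 11 and 6 of 22 settings, and a second *Ddc* probe did not pass (adjusted p = 0.496).

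Inflammation and feedback genes were split within liver. *Il1b*, the cytokine interleukin 1 beta, was 2.03-fold higher in iron-diet livers (7.67, 7.70 and 7.36 against 6.59 and 6.51) and 1.08-fold higher in duodenum (difference 0.91 ± 0.15, adjusted p = 0.0204, lost in 8 settings). *Socs3*, which limits cytokine signalling, was 1.89-fold higher in liver with a difference of 1.18 (adjusted p = 0.0482, lost in 13 settings). *Il6ra*, the interleukin 6 receptor, was 2.09-fold lower in liver (adjusted p = 0.00475) with a difference of -1.13 (adjusted p = 0.033, lost in 9 settings). On the acute phase and complement list of 12 genes tested, 3 rose and 4 fell in liver (1.19% and 0.995% of all probes) and 1 rose in duodenum (0.478%). The medians were -0.07 and -0.03, the second of which turned to 0.03 under median scaling. Neutrophil markers summed to 1020 to 1420 signal units in iron-diet livers against 723 to 784 in control livers, with 4 or 5 of 9 detected against 1 or 2, and the sum without *Lcn2*, which is 1 of them, was 803 to 1110 against 619 to 643. Their part in these results was not tested.

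Lipid synthesis genes rose in liver. Of 14 tested on the fatty acid synthesis list, 6 rose there (1.19% of all probes did) and 0 changed in duodenum, with medians of 0.50 and 0.12. *Fasn*, the fatty acid synthase, and *Acaca*, which makes its malonyl substrate, rose by 1.15 and 0.86 on the log2 scale (adjusted p = 0.0377 and 0.0265). Only the desaturase *Scd1* and the elongase *Elovl5* had called tissue differences. *Scd1* had 14.32, 14.43 and 14.25 in iron-diet livers against 13.58 and 13.81 in control livers, and 7.04, 7.17 and 7.32 in iron-diet duodena against 7.58 and 7.85 in control duodena. It was above its controls in liver and below them in duodenum, a difference of 1.18 ± 0.17 (adjusted p = 0.0113, lost in 2 settings). *Elovl5* had a difference of 0.90 ± 0.15 (adjusted p = 0.0214, lost in 11 settings). The 6 liver calls of this list were down to 0 in at least 1 setting.

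Of the differences led by duodenum, several of the largest were in detoxifying enzymes. *Gsta3*, an alpha-class glutathione transferase, had 13.81, 13.51 and 13.81 in iron-diet livers against 13.73 and 13.58 in control livers. In duodenum it had 10.65, 10.26 and 10.62 on the iron diet against 8.60 and 8.23. The liver groups overlap, while the duodenal rise was 4.27-fold (adjusted p = 0.000221), so that the difference was -2.04 ± 0.21 (adjusted p = 0.00214).

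*Ephx1*, the microsomal epoxide hydrolase, had 12.10, 11.79 and 12.02 in iron-diet livers against 11.64 and 11.85 in control livers, and 9.98, 9.61 and 9.76 in iron-diet duodena against 8.02 and 7.86 in control duodena. It rose 3.58-fold in duodenum alone (difference -1.62 ± 0.18, adjusted p = 0.00326, lost in 1 setting). *Gstm1*, a mu-class transferase, was 4.43-fold higher in duodenum (12.94, 12.41 and 12.50 against 10.24 and 10.70). In liver all iron-diet arrays were higher too, by 1.63-fold (adjusted p = 0.0555). This liver rise passed in a fit of the liver arrays alone (adjusted p = 0.00773). The tissue difference of -1.44 ± 0.23 (adjusted p = 0.0178) was lost in 6 settings. *Cbr1*, a carbonyl reductase, was 1.74-fold higher in duodenum (adjusted p = 0.00594) with all iron-diet livers below their controls (difference -1.07 ± 0.14, adjusted p = 0.00967, lost in 3 settings). The brightest probe of *Gstp1* had a lower mean in liver and a higher mean in duodenum, neither past the threshold, and a difference of -0.95 (adjusted p = 0.0472, lost in 11 settings). A second *Gstp1* probe passed at -1.28 (adjusted p = 0.0161) and was 1.83-fold lower in liver (adjusted p = 0.00972). A further probe gave a difference of -1.05 (adjusted p = 0.0612).

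Over the lists, 7 of 25 genes tested for glutathione synthesis, peroxidases and transferases rose in duodenum and 6 of 24 other NRF2 targets did, where 0.478% of all probes rose. Liver had 2 rises on each list (1.19% of all probes rose there). By its brightest probe, no gene of either list fell in either tissue, but 1 other probe of the glutathione list, of *Gstp1*, fell in liver. The medians were 0.39 in duodenum and 0.13 in liver for the glutathione list, and 0.46 and 0.22 for the other NRF2 targets. Besides the genes above, *Gsta1*, *Gsta2*, *Gsta4*, *Gstm4* and *Gstm6* rose in duodenum by 1.18 to 1.82 on the log2 scale (the brightest probe of each), and *Akr1b8*, *Nqo1*, *Abcc2* and *Aldh1a7* by 0.79 to 2.05. Of these only *Gstm6* was also called in liver. Leaving out iron-diet duodenum 3 left 7 and 6 duodenal rises on the lists, and leaving out control duodenum 2 with it left 4 and 4.

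NRF2 binds antioxidant response elements with the core TGACNNNGC, and the upstream stretch that holds it is shown for the 2 risers in which it was found (RefSeq, GRCm38.p6, plus strand, core in capitals). *Gsta3* lies at chr1:21240433-21240502 and *Abcc2*, which exports glutathione conjugates, at chr19:43782179-43782248.
Gsta3: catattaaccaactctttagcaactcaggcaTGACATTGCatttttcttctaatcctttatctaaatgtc
Abcc2: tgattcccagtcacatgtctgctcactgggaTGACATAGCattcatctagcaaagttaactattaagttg
The core begins at -121 from the start of *Gsta3* and at -98 from that of *Abcc2*. Of the 13 genes of these lists that rose in duodenum, 12 had a promoter in the table, and 2 of their 16 promoters (12.5%) held the core on either strand in the 250 bases before the start, against 10.2% of all 32851 promoters.

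Further single genes were led by duodenum. *Acaa1b*, a peroxisomal thiolase of fatty acid oxidation, had 13.31, 13.30 and 12.96 in iron-diet livers against 13.19 and 13.34 in control livers, and 10.45, 10.35 and 10.85 in iron-diet duodena against 8.97 and 8.44 in control duodena. The liver groups overlap and the duodenal rise was 3.6-fold (difference -1.92 ± 0.26, adjusted p = 0.00966). The list of PPAR alpha targets and fatty acid oxidation, to which it belongs, had 1 positive and 1 negative difference among 29 genes tested (0.594% and 0.416% of all probes). The list had 4 rises and 1 fall in liver (1.19% and 0.995% of all probes) and 2 rises in duodenum (0.478%). *Slc39a4*, the zinc importer of enterocytes, was 1.84-fold higher in duodenum (11.80, 11.62 and 11.85 against 10.91 and 10.85), with iron-diet livers below their controls (difference -1.23 ± 0.16, adjusted p = 0.00944, lost in 2 settings). *Slc30a10*, which exports manganese, was 1.88-fold higher in duodenum with the same size of difference, -1.23 ± 0.22 (adjusted p = 0.0285, lost in 9 settings). The metallothionein and zinc transport list had these 2 calls among 11 genes tested (0.416% of all probes had a negative difference). In cholesterol synthesis, *Cyp51*, *Msmo1*, *Hmgcs1* and *Hsd17b7* rose in duodenum and *Lss* in liver, 4 and 1 of 21 tested (0.478% and 1.19% of all probes). A tissue difference was called for 0 of the 21. For *Cyp51*, the sterol demethylase, the difference was -0.74 ± 0.16 (adjusted p = 0.0673).

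Of 8 MHC class II genes tested, 3 fell in duodenum (0.362% of all probes did) and 0 changed in liver, where 6 values were positive. *H2-Aa*, the alpha chain of an MHC class II molecule, had 8.56, 8.46 and 9.15 in iron-diet livers against 7.55 and 8.17 in control livers, and 9.01, 9.37 and 8.92 in iron-diet duodena against 10.62 and 10.27 in control duodena. All iron-diet arrays were above their controls in liver and below them in duodenum. The duodenal fall was 2.53-fold (adjusted p = 0.0259), the liver value 1.82-fold higher (adjusted p = 0.0966), and the difference 2.20 ± 0.33 (adjusted p = 0.0144, lost in 4 settings).

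*Cd74*, the invariant chain that guides class II assembly, had 10.34, 10.27 and 9.91 in iron-diet duodena against 11.32 and 11.84 in control duodena, and overlapping groups in liver. It was 2.65-fold lower in duodenum, just short of the threshold (adjusted p = 0.0559, and 0.0482 in a fit of the duodenum arrays alone). The difference was 2.13 ± 0.41 (adjusted p = 0.0407, lost in 10 settings). A second *Cd74* probe gave 1.37 (adjusted p = 0.12). *H2-DMa*, a subunit of the peptide exchange factor, fell 2.06-fold in duodenum (7.42, 7.29 and 7.35 against 8.29 and 8.50, adjusted p = 0.000866) and was at least 1.13-fold higher in liver, where the controls were not above background (measured difference 1.33 ± 0.14, adjusted p = 0.00214, and at least 1.23). *H2-DMb1*, its partner, fell 2.15-fold in duodenum (difference 1.31 ± 0.23, adjusted p = 0.0276, lost in 10 settings). On the MHC class II list of 8 genes tested, 4 had a positive tissue difference (0.594% of all probes). The medians were 0.40 in liver and -1.07 in duodenum, and *Ciita*, the master activator of the class II genes, is on the list without passing in either tissue (adjusted p = 0.991 and 0.622). Without iron-diet duodenum 3 the list had 3 positive differences and 2 duodenal falls, and without control duodenum 2 as well it had 2 and 1.

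Interferon-inducible genes had lower duodenal values too. Of 26 tested with MHC class I and immunoproteasome genes, 5 had a positive difference, 3 fell in duodenum and 2 rose in liver (0.594%, 0.362% and 1.19% of all probes). In duodenum 24 of 26 values were negative, where 54.5% of all probes were positive. *Ubd*, a ubiquitin-like modifier, had 6.87, 6.90 and 6.59 in iron-diet duodena against 8.02 and 7.92 in control duodena, a 2.27-fold fall (adjusted p = 0.00094). In liver its groups overlapped close to background, at 6.33 to 6.62 (difference 1.15 ± 0.16, adjusted p = 0.0113, lost in 3 of 21 settings). *Igtp*, an interferon-inducible GTPase, fell 1.98-fold in duodenum (difference 1.42 ± 0.24, adjusted p = 0.0214, lost in 10 settings). *Rsad2*, the antiviral protein viperin, was led by liver, with 9.02, 8.92 and 9.14 in iron-diet livers against 8.18 and 7.84 in control livers. Its rise was 2.02-fold there (adjusted p = 0.00311), its duodenal value 1.48-fold lower (adjusted p = 0.0824), and its difference 1.58 ± 0.18 (adjusted p = 0.00409, lost in 1 setting). *Irf1*, a transcription factor of the interferon response, had a difference of 1.15 ± 0.19 (adjusted p = 0.0214, lost in 8 settings), and its second probe gave 0.70 (adjusted p = 0.169). Without iron-diet duodenum 3 the list had 5 positive differences and 1 duodenal fall, and without control duodenum 2 as well it had 3 and 1.

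Markers of lymphoid cells and macrophages, and of some other cell types, were lower in iron-diet duodena too. Neutrophil markers were not, at 852 to 917 signal units in iron-diet duodena against 860 to 907 in control duodena. T and NK cell markers, 10 of 12 with a named probe, summed to 1830 to 1980 signal units in iron-diet duodena against 2350 to 2480 in control duodena, and B and plasma cell markers, 8 of 9, to 1150 to 1280 against 1660 to 2490. Macrophage markers, 11 of 13, summed to 1260 to 1430 against 1450 to 1830. Neither group of arrays overlapped the other for any of the 3 lists, narrowly for macrophages. Of all probes, 26.9% had duodenal groups that do not overlap. The higher control sums of B and plasma cells and of macrophages were those of control duodenum 2. Control duodenum 1 gave 1660 and 1450. Goblet cell markers summed to 30700 to 37800 against 40800 to 41100, and stomach and Brunner gland markers to 6190 to 6350 against 7870 to 7880, also without overlap. Pancreatic acinar markers were lower without overlap too, at 192000 to 195000 against 200000 to 221000. The sums of enterocyte, Paneth, enteroendocrine, hepatocyte, erythroid and smooth muscle markers overlapped. *Mzb1*, a plasma cell chaperone, and *Cd3e*, a chain of the T cell receptor complex, were lower by -1.11 and -0.67 on the log2 scale (adjusted p = 0.00834 and 0.0268). *Ms4a1* and *Cd2*, which mark B and T cells, had values of -0.02 each. In liver the 3 lists were at 926 to 1060 against 884 to 954, 646 to 664 against 606 to 612, and 2860 to 3500 against 2800 to 2900. The part of such cells in the class II and interferon results was not tested.

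**Figure D3:**
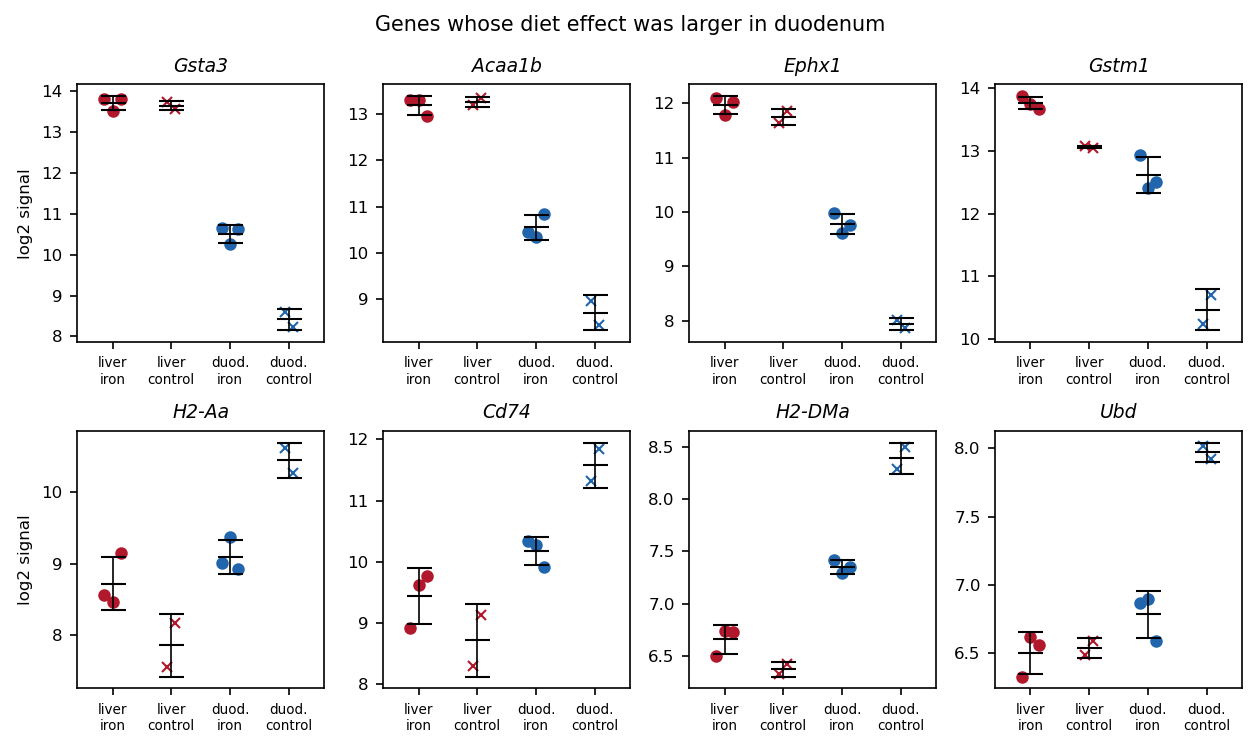
Log2 signal of 8 genes on each array (points, circles for the iron diet and crosses for the control diet), with the group mean and SD as bars, in liver (red) and duodenum (blue). Gsta3, Acaa1b, Ephx1 and Gstm1 are higher in iron-diet duodena than in control duodena by 1.84 to 2.15 log2 units, and H2-Aa, Cd74, H2-DMa and Ubd are lower by 1.04 to 1.41.

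The shared response, as called in both tissues, held 13 named genes, 8 that rose and 5 that fell. *Cyp4a10*, a fatty acid hydroxylase and PPAR alpha target, led it, with 13.09, 12.72 and 12.81 in iron-diet livers against 11.85 and 11.20 in control livers, and 10.37, 10.70 and 10.76 in iron-diet duodena against 8.59 and 8.22 in control duodena. It was 2.55-fold higher in liver (adjusted p = 0.00623) and 4.62-fold higher in duodenum (adjusted p = 0.000615), and the difference of -0.86 ± 0.28 did not pass (adjusted p = 0.229). A second *Cyp4a10* probe was called in both tissues too, at least 1.87-fold higher in duodenum, where it was not above background on the control diet. Its near relative *Cyp4a31* had 9.32, 9.03 and 9.01 in iron-diet livers against 7.92 and 7.75 in control livers and a called tissue difference of 0.96 ± 0.19 (adjusted p = 0.0437), lost in 16 of 19 settings. It was not above background in control duodena, so the difference has only an upper bound, 1.09.

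*Gstm6*, a mu-class transferase, was 1.78-fold higher in liver (12.62, 12.41 and 12.45 against 11.50 and 11.84) and 2.79-fold higher in duodenum (11.69, 11.37 and 11.52 against 9.95 and 10.14). Its tissue difference was -0.65 ± 0.18 (adjusted p = 0.156), while the other *Gstm6* probes rose in duodenum and not in liver, 1 of them with a called difference of -0.81 (adjusted p = 0.027). *Egln3*, an oxygen- and iron-dependent prolyl hydroxylase that marks HIF for destruction, was 1.60-fold higher in liver and 1.70-fold higher in duodenum, with a difference of -0.09 ± 0.18. The call of *Egln3* was lost in 5 of 22 settings in each tissue. Its second probe, close to background, showed neither rise. *Srxn1*, the NRF2 target sulfiredoxin, rose on a pair of probes by 0.50 and 0.58 in liver and 0.38 and 0.43 in duodenum on the log2 scale. It and *Hsd17b11*, a lipid droplet dehydrogenase (0.68 and 0.73), were called through probes other than their brightest and are named after their values were seen. *Zbtb22*, *Spata13* and *Col18a1* rose by 0.36 to 0.57 on the log2 scale, with calls that were lost in at least 8 settings in 1 or both tissues.

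There were 5 shared falls. Besides *Tfrc*, the liver and duodenal calls were lost in 0 and 3 of 21 settings for *Pfkfb3*. Of 22 settings, they were lost in 4 and 0 for *Chordc1*, 5 and 5 for *P4ha1*, and 3 and 7 for *Cela1*. *Pfkfb3*, which makes the activator of glycolytic phosphofructokinase, had 6.35, 6.58 and 6.75 in iron-diet livers against 7.41 and 7.52 in control livers, and 7.17, 7.22 and 7.03 in iron-diet duodena against 7.95 and 8.10 in control duodena. The falls were nearly equal, 1.87-fold and 1.85-fold (difference -0.01 ± 0.16, adjusted p = 0.987). *P4ha1*, a collagen prolyl hydroxylase, was 1.48-fold lower in liver and 1.60-fold lower in duodenum (difference 0.11 ± 0.15). *Tfrc*, given above, was among them. *Chordc1*, a co-chaperone of HSP90, was 1.53-fold lower in liver and 2.26-fold lower in duodenum (difference 0.56 ± 0.14, adjusted p = 0.124). *Cela1*, an elastase made by pancreatic acinar cells, was lower in both, by 0.65 and 0.52 on the log2 scale, at 8.45 to 8.52 in iron-diet livers against 9.10 and 9.17. Acinar markers as a list summed to 192000 to 195000 in iron-diet duodena against 200000 to 221000 in control duodena, and 4310 to 4710 in iron-diet livers against 4690 to 4830, and their part in the *Cela1* result was not tested.

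*Spsb1* was the only gene called in both tissues with opposite signs. Its product recruits proteins for ubiquitination, inducible nitric oxide synthase among them. The log2 signal was 7.15, 7.07 and 7.0 in iron-diet livers against 6.53 and 6.64 in control livers, and 8.51, 8.61 and 8.65 in iron-diet duodena against 9.57 and 9.59 in control duodena. It rose 1.4-fold in liver (adjusted p = 0.0116) and fell 1.98-fold in duodenum (adjusted p = 0.000395), a difference of 1.48 ± 0.11 (adjusted p = 0.000182).

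**Figure D4:**
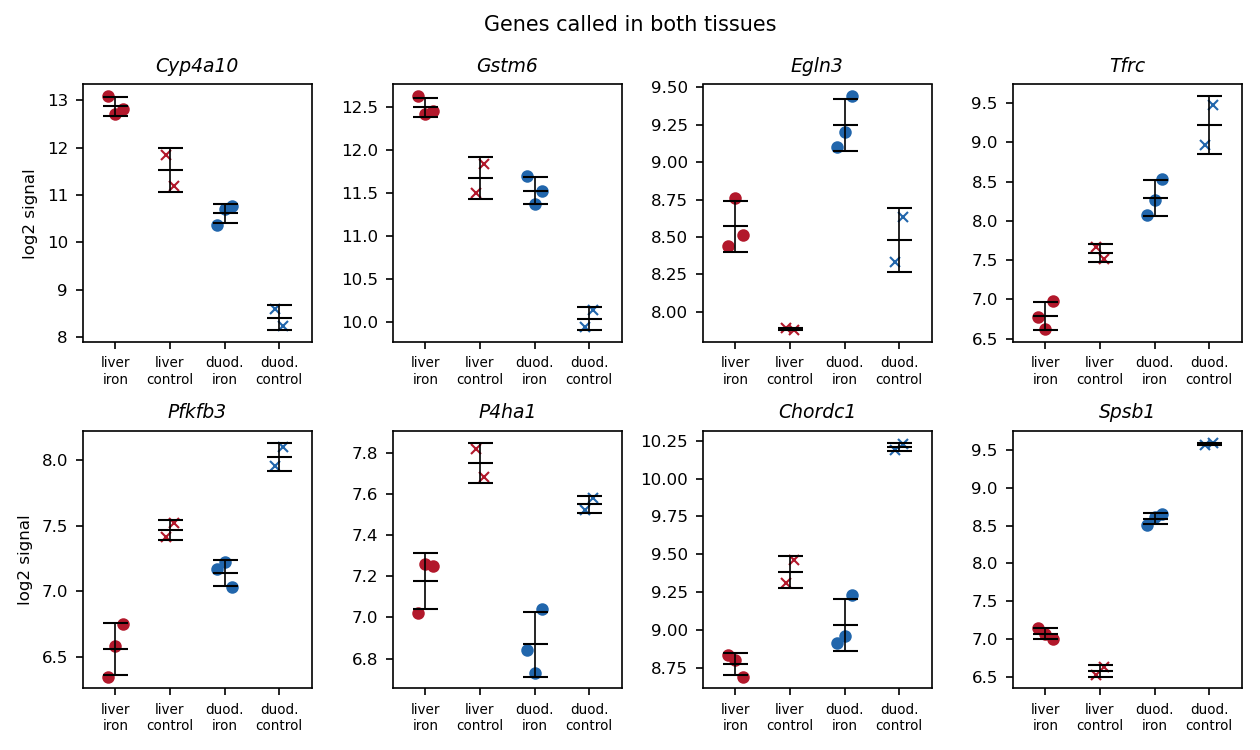
Log2 signal on each array (points, circles for the iron diet and crosses for the control diet), with the group mean and SD as bars, of 8 genes called in both liver (red) and duodenum (blue). Cyp4a10, Gstm6 and Egln3 are higher on the iron diet in each tissue, Tfrc, Pfkfb3, P4ha1 and Chordc1 are lower in each, and Spsb1 is higher in liver and lower in duodenum.

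Several cytosolic heat shock genes fell in duodenum. Of 29 tested, 6 fell there (0.362% of all probes did), and in liver 2 rose and 1 fell (1.19% and 0.995% of all probes), with medians of -0.10 in liver and -0.27 in duodenum. *Hsph1* and *Dnajb1*, co-chaperones of HSP70, were lower in duodenum by -2.50 and -1.39 on the log2 scale (adjusted p = 0.00232 and 0.00744) and had lower means in liver too, by -1.09 and -0.62, without passing. *Bag3*, *Stip1* and *Ahsa1* fell in duodenum by 0.65 to 1.08. None of these 5 had a called tissue difference. The calls belonged to *Hspb8* and *Hspa2*, which rose in liver by 0.58 and 0.61 and had lower means in duodenum (differences 1.0 ± 0.13 and 0.87 ± 0.12, adjusted p = 0.00899 and 0.0113, each lost in 3 settings). Without iron-diet duodenum 3 the list had 4 positive differences and 6 duodenal falls, and without control duodenum 2 as well it had 3 and 4.

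*Hspa1a*, the inducible HSP70, was tested in duodenum only, where it had 6.56, 6.61 and 6.53 on the iron diet against 7.23 and 7.31 on the control diet and was detected on 1 of 3 and 2 of 2 arrays. It was 1.63-fold lower (adjusted p = 0.0259 in a fit of the duodenum arrays alone). Its promoter is shown for the heat shock element core GAANNTTC, to which heat shock factor binds (RefSeq, GRCm38.p6, chr17:34972222-34972291, minus strand, core in capitals).
Hspa1a: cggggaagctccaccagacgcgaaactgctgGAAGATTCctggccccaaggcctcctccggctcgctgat
The core begins at -104 from the start. None of the 8 promoters of the 6 duodenal fallers held these letters in the 250 bases before the start, against 6.69% of all promoters.

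Some signal-responsive genes had called tissue differences as well. *Dusp6*, a phosphatase that switches off ERK, was 1.83-fold lower in duodenum (adjusted p = 0.0189) and 1.51-fold higher in liver (adjusted p = 0.0601), with groups apart in both (difference 1.47 ± 0.20, adjusted p = 0.011, lost in 2 settings). *Zfp36l1*, which promotes decay of AU-rich mRNA, was 2.14-fold higher in liver (difference 1.58 ± 0.28, adjusted p = 0.0263, lost in 8 settings). Dimmer second probes of *Dusp6* and *Zfp36l1* gave 0.35 and 0.47 (adjusted p = 0.224 and 0.375). *Bhlhe40*, a repressor tied to the clock, was 2.35-fold higher in liver (difference 1.39 ± 0.23, adjusted p = 0.0214, lost in 7 settings). The immediate early list had 2 called differences among 14 genes tested and the circadian list 1 among 13, where 1.01% of all probes had one. The bile acid list had 0 among 6 and the list of endoplasmic reticulum chaperones 0 among 24.

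Some genes could be tested in 1 tissue only. Of 1948 probes detected in liver and not in duodenum, 78 passed in a fit of the liver arrays (4%), 33 higher (1.69%) and 45 lower (2.31%). Of 3402 detected in duodenum and not in liver, 20 passed in a fit of the duodenum arrays (0.588%), 9 higher (0.265%) and 11 lower (0.323%). Over all probes detected in a tissue these fits called 2.43% in liver and 0.409% in duodenum. In liver, *Cyp4a14*, a relative of *Cyp4a10*, had 11.96, 11.79 and 11.88 on the iron diet against 9.46 and 8.69 (6.97-fold higher, adjusted p = 0.00077). *Rgs16*, a regulator of G protein signalling, and *Apoa5*, an apolipoprotein that lowers plasma triglyceride, were 5.07-fold and 3.03-fold higher. *Elovl3*, an elongase of very long fatty acids, had 7.71, 7.01 and 6.58 against 9.66 and 9.18 (5.0-fold lower, adjusted p = 0.00922), and *Fam25c* and *Cyp4a12a* were 7.45-fold and 3.61-fold lower.

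In duodenum, *Slc5a4b*, a member of the sodium-glucose transporter family, had 10.41, 10.17 and 9.86 on the iron diet against 8.02 and 7.09 (6.04-fold higher, adjusted p = 0.0259). *Cbr3*, a carbonyl reductase and NRF2 target, had 9.70, 8.92 and 9.30 against 6.90 and 7.11 (4.94-fold higher, adjusted p = 0.0244), and *Slc37a2*, a sugar phosphate exchanger, was 2.35-fold higher. *Slc38a5*, a glutamine transporter, had 8.17, 7.99 and 7.92 against 9.06 and 9.40 (2.30-fold lower, adjusted p = 0.0259). *Tnfrsf17*, the plasma cell receptor BCMA, had 7.44, 7.53 and 7.31 against 8.16 in both control duodena (1.66-fold lower, adjusted p = 0.0421).

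**Figure D5:**
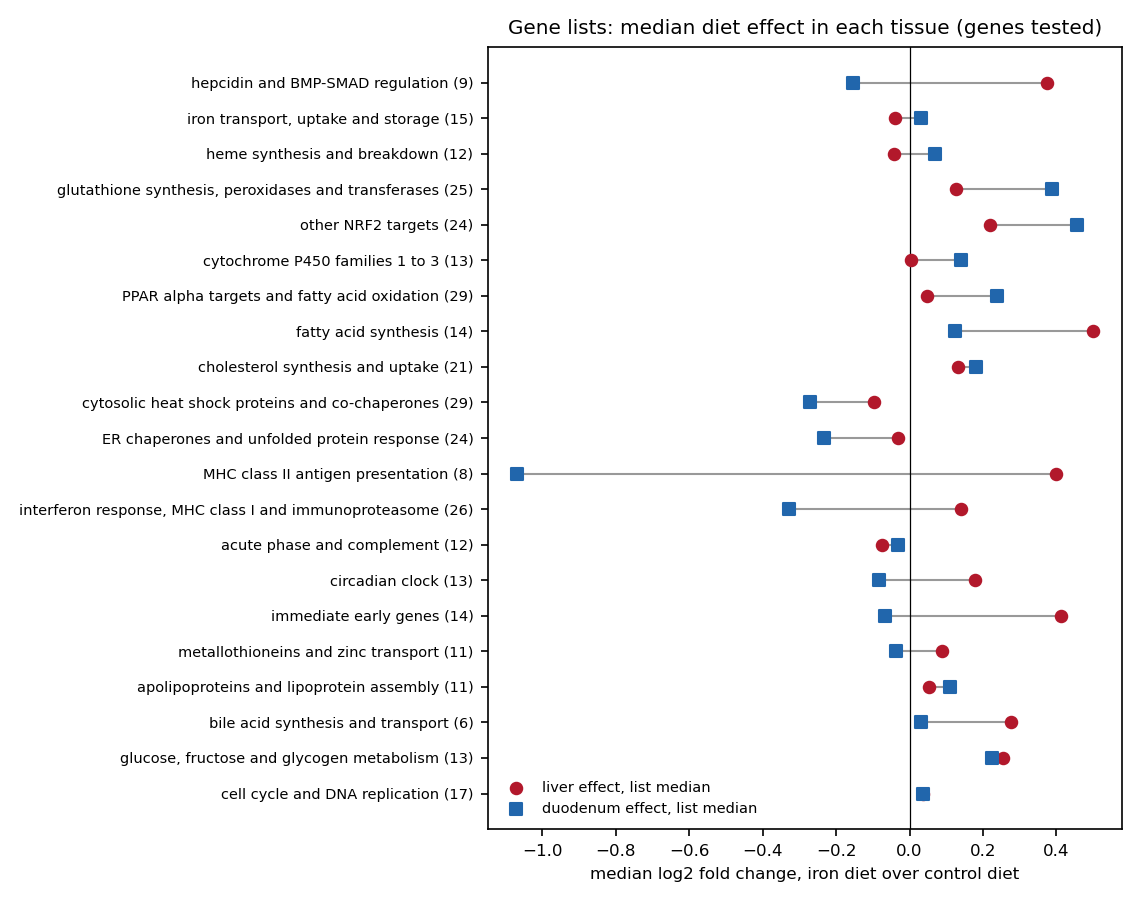
Median log2 fold change of iron over control diet for the tested genes of each of 21 gene lists in liver (red circles) and duodenum (blue squares), with the number of genes tested in parentheses. The widest gap is on the MHC class II list, at 0.40 in liver and -1.07 in duodenum, and the glutathione and other NRF2 lists have their higher medians in duodenum.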

How the data were processed

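The deposited signals hold, per the file headers, a mean bead intensity on a linear scale and a detection p-value per probe and array. The authors deposited these intensity values without background subtraction or normalization, and the p-values came from the scanner software, with its version not given in the sources used here. Values in the deposited matrix are log2, quantile-normalized by the authors in Chipster. Their correlation with the signals of the same probes was 1 in liver and 0.00815 to 0.0111 in duodenum, where they do not follow the probe identifiers, so the matrix was not used further.

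Entries of 11 duplicated identifiers were averaged. Of 46632 probes, 29976 have 1 gene symbol in the platform annotation, 10 several and 16646 none. Signals were quantile-normalized over the 5 diet arrays of each tissue and brought to log2 with no background correction. The 4 group means were fitted with lmFit and eBayes of limma 3.58.1, run in R 4.3.3, over the 10 arrays, with contrasts for the diet effect in each tissue and for their difference. P-values were adjusted by Benjamini and Hochberg's method across all 12971 tested probes and called under 0.05. The method was tested on simulated data. The number of arrays limits the precision.

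Each gene is represented by its brightest probe. Named genes are the 8 largest differences in each direction, the shared calls, the 3 largest 1-tissue calls in each direction, leading members of the 21 gene lists, and 13 iron genes. Further members of the lists were named after their values were seen. The members, the lists and the comparison were chosen with earlier results of these data known. Arrays were grouped by sample title. Alternatives covered normalization, background, detection filter, prior, array weights, blocks and leaving out each array.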

Additional observations from a re-analysis of the deposited data

Results flagged for a closer look

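For 131 probes the test of the difference itself found a diet effect that was not the same in liver and duodenum, and 42 of the named genes were among them. The values are log2 effects in liver minus those in duodenum.

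Among genes of iron, BMP and heme, the differences were 4.19 for *Hamp2*, 3.25 for *Id1*, 1.79 for *Id3*, 1.18 for *Lcn2* and -1.13 for *Alas2*. Genes of lipid metabolism gave 2.77 for *Apoa4*, 1.18 for *Scd1*, 0.96 for *Cyp4a31*, 0.90 for *Elovl5* and -1.92 for *Acaa1b*. Drug and detoxifying enzymes gave 2.90 for *Cyp2b10* (at least 2.64, with control livers not above background), -2.04 for *Gsta3*, -1.62 for *Ephx1*, -1.44 for *Gstm1*, -1.07 for *Cbr1* and -0.95 for *Gstp1*.

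Antigen presentation genes gave 2.20 for *H2-Aa*, 2.13 for *Cd74*, 1.33 for *H2-DMa* and 1.31 for *H2-DMb1*. Interferon-inducible genes gave 1.58 for *Rsad2*, 1.42 for *Igtp*, 1.15 for *Irf1* and 1.15 for *Ubd*. Cytokine genes gave 1.18 for *Socs3*, 0.91 for *Il1b* and -1.13 for *Il6ra*, and the chaperones 1.0 for *Hspb8* and 0.87 for *Hspa2*.

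Genes of growth and signalling gave 2.12 for *Ccnd1*, 2.09 for *Csrnp1*, 1.58 for *Zfp36l1*, 1.48 for *Spsb1*, 1.47 for *Dusp6* and 1.39 for *Bhlhe40*. The remaining genes were all more positive in duodenum, at -1.60 for *Ddc*, -1.37 for *Bok*, -1.33 for *Ttc39c*, -1.25 for *Selenbp1*, -1.23 for *Slc39a4*, -1.23 for *Slc30a10* and -0.91 for *Ppp1r3b*.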

How the results depend on the processing

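Counts of calls are given in the order tissue difference, liver, duodenum and shared. They were 131, 283, 109 and 15, against 23, 77, 41 and 3 with median scaling and 250, 429, 227 and 19 without the detection filter. Array weights gave 491 for liver and 23 shared. Whether a number shared across tissues marks 1 mouse is not known. Deviations of same-numbered arrays had coefficients of -0.1346 to 0.0751, which cannot settle this with 2 or 3 arrays a group. With the number as a replicate block over both tissues the tissue difference had 64 calls, and with the number as a replicate block within each tissue the counts were 36, 107, 68 and 10. As a random block it left all counts as they were. A separate fit in each tissue gave 51 for duodenum and 8 shared. Of the named genes, it lost 3 liver calls and 10 duodenal calls. Leaving out iron-diet duodenum 3 with control duodenum 2, an alternative chosen after seeing the data, gave 80 for the tissue difference and 47 for duodenum. Requiring 1.4-fold in each tissue and groups that do not overlap, with no p, gave 41 shared.

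Leaving out 1 array gave 23 to 231 for the tissue difference, 66 to 320 for liver, 30 to 268 for duodenum and 3 to 20 shared. The lowest came without control liver 1, or control duodenum 2 for duodenum. The highest came without control duodenum 1 for the tissue difference and duodenum, and without iron-diet duodenum 3 for liver and shared. Without control duodenum 2 the tissue difference had 43 calls. The cause of these shifts was not tested. Of the named genes with a call, 9 of 42 kept it for the tissue difference, 14 of 39 for liver and 11 of 27 for duodenum in every alternative that measured them. No value with a call changed sign. Values near 0 without a call could, such as *Slc11a2* in duodenum, which ran over -0.32 to 0.30. The slide could not be used as a block, since the files used here do not give it. With 2 control arrays a group, their number limits the precision, and signals near background understate a fold change.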
